A study of Homo sapiens with 6 samples.

Results

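NANOG and KLF2 are the genes whose transgenes were used to reset human embryonic stem cells, and their own chromosomal loci were examined here in whole-genome bisulfite sequencing data. The genes were taken by name as the study's resetting factors, by a rule in which no measured value enters, and are 2 of the 19812 protein-coding genes annotated on GRCh37. For each gene the methylation level and the read coverage were determined over the exons and introns that held CpG calls, the promoter (1000 bases before to 500 bases after the canonical transcription start) and the 10 kb upstream of the start. NANOG lies on the plus strand at chr12:7941998-7951742 (ENSG00000111704) with 4 exons and 3 introns, of which intron 3 (135 bases) holds no CpG and exon 2 received no call. KLF2 lies on the plus strand at chr19:16435637-16439496 (ENSG00000127528) with 3 exons and 2 introns.

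NANOG is a homeodomain transcription factor of the pluripotent epiblast that helps embryonic stem cells to self-renew, and it works with OCT4 and SOX2. KLF2 is a zinc finger transcription factor of the Krüppel-like family, which forms part of the naive network in mouse embryonic stem cells and is known in adult tissue from endothelium and resting T cells. In mammals methylation is found mainly on the cytosine of CpG dinucleotides, and the dense CpG clusters around many gene starts are mostly kept free of it. A transgene made from cDNA holds joined exons without introns, so its reads align to the exons of the endogenous gene and can add coverage there but not over introns.

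All libraries were made from the established human embryonic stem cell line H9, kept on mouse embryonic fibroblast feeders at 5% oxygen. The 3 Conventional libraries came from cells in 20% KSR and 10 ng/ml bFGF. For resetting, H9 cells had been transfected with piggyBac vectors carrying KLF2, or NANOG coupled to the Venus reporter, under DOX control, together with an rtTA construct that makes the promoters respond to DOX. They were treated with 1 μM DOX and moved to N2B27 medium with 1 μM PD0325901 (a MEK inhibitor), human LIF and CHIR99021 (a GSK3 inhibitor). The 3 Reset libraries came from such cells after DOX withdrawal in t2iL+Gö, which holds 1 μM PD0325901, 1 μM CHIR99021, LIF and 5 μM Gö6983, an inhibitor of protein kinase C. The libraries of a group are described as biological replicates. The sources used here do not give whether the Conventional cells also carried the vectors, or whether each Reset library came from its own resetting. Nor do they give how many vector copies were integrated and from which species the cDNAs came. The p-values therefore speak for these libraries alone. The model tests below count calls singly and take part of the spread from all features together. Their very small p-values thus do not measure the spread of the libraries at a single feature alone.

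The libraries held 70329213 to 98004161 CpG calls, where a call is the reading of 1 CpG cytosine on 1 read as methylated or unmethylated. Each autosomal CpG received on average 3.28 to 3.50 calls in a Conventional library and 2.53 to 2.88 in a Reset one. The autosomal methylation level, the percentage of methylated calls, lay between 84.4 and 84.7% in the former and between 29.5 and 30.3% in the latter. Relative coverage below is the number of calls per CpG of a stretch divided by the autosomal calls per CpG of the same library, so that 1 is the library's own mean.

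The 250 bases before each start are shown because these promoters differ in CpG density, with CpGs in capitals (GRCh37 from GENCODE gene starts, plus strand, 5′ to 3′; NANOG chr12:7941748-7941997, KLF2 chr19:16435387-16435636).
NANOG upstream of the start: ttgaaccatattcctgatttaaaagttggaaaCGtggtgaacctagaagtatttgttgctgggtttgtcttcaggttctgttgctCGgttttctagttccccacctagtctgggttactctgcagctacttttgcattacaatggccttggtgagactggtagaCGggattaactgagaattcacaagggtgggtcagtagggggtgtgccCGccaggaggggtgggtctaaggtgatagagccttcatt
KLF2 upstream of the start: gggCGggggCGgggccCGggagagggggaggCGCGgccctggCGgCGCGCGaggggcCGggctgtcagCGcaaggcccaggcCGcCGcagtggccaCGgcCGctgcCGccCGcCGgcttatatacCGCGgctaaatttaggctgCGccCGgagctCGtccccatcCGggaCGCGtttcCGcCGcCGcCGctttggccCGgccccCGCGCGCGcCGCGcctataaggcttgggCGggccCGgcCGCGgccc
The NANOG stretch held 4 CpGs at a GC content of 47.6% and the KLF2 stretch 41 CpGs at 80.0%. Methylated calls over the 3 libraries of a group made up 1.75% of 57 calls (Conventional) and 0% of 19 calls (Reset) in the NANOG stretch, and 0% of 162 and 0% of 65 calls in the KLF2 stretch. The letters TTTGCAT and ACAATG, the cores of an octamer and of a SOX site, stood with 1 base between them at −120 to −107 of NANOG, counted with the start as 0. Searched on both strands of the 250 bases before the start, this arrangement was found in 2 of 19812 promoters (0.0101%), TTTGCAT alone in 644 (3.25%) and ACAATG alone in 1235 (6.23%), and none of these strings was found in the KLF2 stretch. A match of letters is a description and not a measured binding site.

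Of the transcribed sequences, exon 2 of NANOG is shown because no library held a call there (CpGs in capitals, GRCh37, plus strand; chr12:7945546-7945808).
NANOG exon 2: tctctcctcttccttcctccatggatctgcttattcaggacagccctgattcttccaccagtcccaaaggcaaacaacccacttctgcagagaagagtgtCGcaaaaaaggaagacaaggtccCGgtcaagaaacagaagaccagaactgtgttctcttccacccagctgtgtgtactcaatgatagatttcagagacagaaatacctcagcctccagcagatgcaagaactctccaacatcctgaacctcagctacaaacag
Exon 2 held 2 CpGs in 263 bases and no call in any of the 6 libraries.

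From KLF2, the start of exon 2 is shown because its level was higher in every Reset library, and the CpG-richest 300 bases of the exon are shown because its coverage gain was spread over CpGs of this kind (CpGs in capitals, GRCh37, plus strand; chr19:16436027-16436236 and chr19:16436334-16436633).
KLF2 start of exon 2: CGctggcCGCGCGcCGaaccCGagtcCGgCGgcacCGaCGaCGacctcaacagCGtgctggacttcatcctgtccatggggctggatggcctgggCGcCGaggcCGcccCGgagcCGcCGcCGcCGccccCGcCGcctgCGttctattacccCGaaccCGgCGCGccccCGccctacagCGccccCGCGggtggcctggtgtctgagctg
KLF2 exon 2 stretch: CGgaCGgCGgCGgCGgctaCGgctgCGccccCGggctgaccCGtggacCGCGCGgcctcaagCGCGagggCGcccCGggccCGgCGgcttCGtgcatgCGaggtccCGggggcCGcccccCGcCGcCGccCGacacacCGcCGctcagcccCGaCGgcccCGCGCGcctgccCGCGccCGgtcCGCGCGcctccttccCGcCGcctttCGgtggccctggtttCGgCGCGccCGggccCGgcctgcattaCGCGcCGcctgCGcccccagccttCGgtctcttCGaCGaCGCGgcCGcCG
The first of these held 31 CpGs in 210 bases and the other 58 CpGs in 300 bases, with GC contents of 76.2% and 82.3%. In the latter, 120 Conventional calls stood against 348 Reset calls, of which 0.833% and 1.72% were methylated.

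The introns of NANOG lost nearly all methylation in reset cells and its upstream region fell to 22.0%, while its promoter was low in both states. Over the introns, 51.6, 45.3 and 54.5% of calls were methylated in the Conventional libraries and 4.29, 2.65 and 0.889% in the Reset libraries. The groups lay far apart, and the difference of −47.8 points passed the test (quasi-binomial logistic model with limma, adjusted p = 4.27e-10), as did 97.2% of the 18308 intron sets tested across all genes in the direction of a fall. In the 10 kb upstream, levels were 66.6, 77.1 and 64.3% against 23.2, 22.0 and 20.6%, a difference of −47.4 points (quasi-binomial model with limma, adjusted p = 7.35e-10) in a class of regions of which 98.8% of 19649 fell. The median over all genes went from 84.7 to 32.2% in introns and from 71.9 to 25.2% upstream. The NANOG means in Reset, 2.61% in the introns and 22.0% upstream, stand beside these medians.

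The promoter of NANOG read 5.48, 7.35 and 6.74% in Conventional and 4.55, 4.08 and 2.86% in Reset libraries. These groups did not overlap, but their difference of −2.70 points did not pass the test (quasi-binomial model with limma, adjusted p = 0.321), and it was 0.31 when the promoter was taken as 500 bases on either side of the start. Among 19293 promoters, 67.3% fell and 3.98% rose, and the median promoter went from 15.4 to 4.98%. The coding sequence, with only 8 CpGs in 918 bases, read 36.4, 47.6 and 37.5% against 25.0, 20.0 and 12.5%. Calls fell on 5, 5 and 4 of these CpGs in the Conventional libraries and on 4 in each Reset library. In Reset all of them lay in coding exons 1 and 3, which moved in opposite directions, as given below. Each level rested on 10 to 21 calls. The difference of −21.3 points missed the threshold (quasi-binomial model with limma, adjusted p = 0.0602), whereas 94.3% of 18634 coding sequences fell. Fisher's exact test on the pooled calls, which leaves out the spread between libraries, gave an adjusted p of 0.0353 for the same difference.

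Within NANOG the stretches behaved unequally. Coding exon 1, which lies inside the unmethylated start region, read 12.5, 15.4 and 9.09% in Conventional and 28.6, 16.7 and 20.0% in Reset libraries on 6 to 13 calls each (two-sided exact permutation test, p = 0.1, the smallest value that 3 libraries against 3 allow). Exon 3 read 100% in each Conventional library and 20.0, 25.0 and 0% in the Reset libraries, on 2 to 6 calls. Intron 1 fell from 41.9, 36.1 and 43.0% to 2.40, 1.27 and 0% and intron 2 from 81.4, 76.9 and 78.5% to 10.5, 5.88 and 3.57% (two-sided exact permutation test, p = 0.1 for each). In the 3′ UTR, levels were 60.0, 68.9 and 63.9% against 15.7, 19.4 and 29.2% (two-sided exact permutation test, p = 0.1). Coding exon 1 was the only one of these stretches in which the Reset libraries lay above the Conventional ones, but it held 4 methylated of 32 calls against 5 of 23 at 2 CpGs. With its 5′ UTR, exon 1 read 8.33, 13.3 and 6.25% against 25.0, 11.1 and 16.7%, with overlap (two-sided exact permutation test, p = 0.2).

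Intron 1 held a border that was present in conventional cells and absent in reset cells. With the intron divided 2 kb after the gene start, a division made after the values were seen, its beginning read 10.7, 8.49 and 11.8% in Conventional and 5.08, 0 and 0% in Reset libraries. The rest of the intron read 75.7, 75.7 and 83.1% against 0, 2.15 and 0%. Both pieces were therefore at or under 5.08% in each Reset library. A similar stretch lay upstream: in the 1500 bases that begin 5000 bases before the start (chr12:7936998-7938497, 17 CpGs, also picked after the values were seen) levels were 86.8, 84.1 and 84.6% in Conventional and 1.54, 0 and 1.96% in Reset libraries. No test is given for stretches picked in this way.

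**Figure D1:**
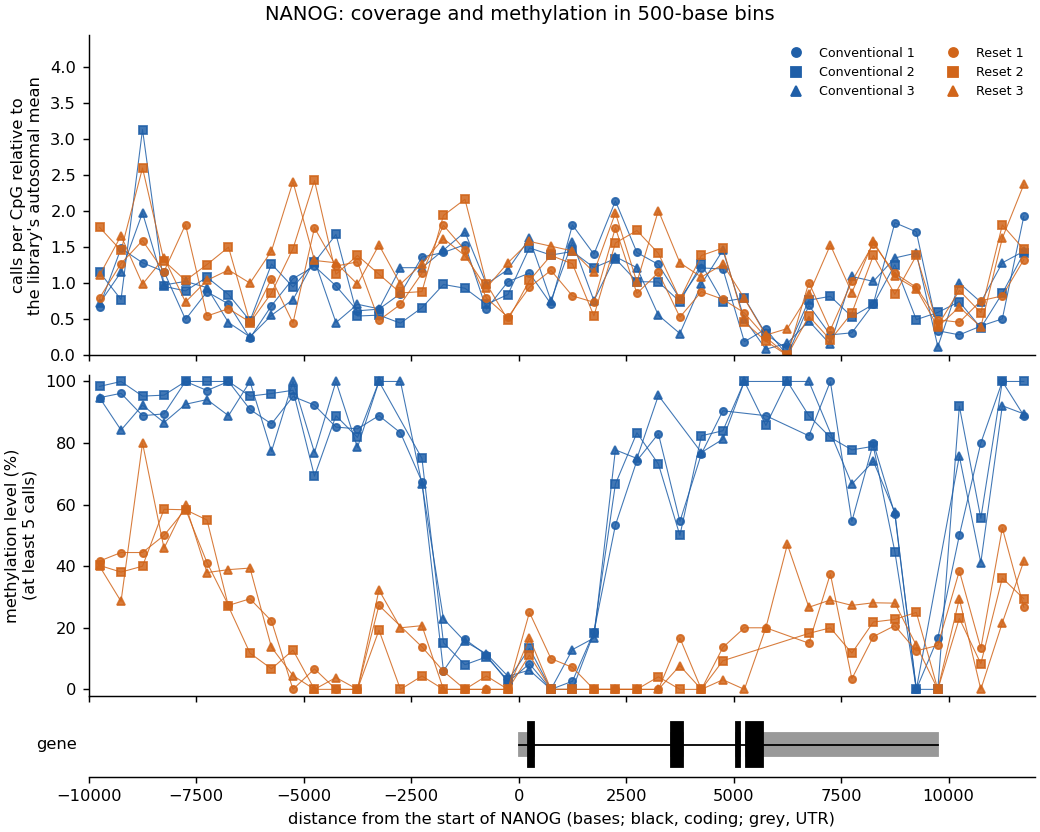
NANOG in bins of 500 bases, with relative coverage (top) and methylation level in percent (middle, bins with at least 5 calls) against the distance from the gene start in bases, 1 line per library, and the gene model (bottom; black, coding; grey, UTR). Conventional libraries rise within intron 1, whereas Reset libraries have group means of 1.22% over intron 1 and 6.66% over intron 2, and coverage drops in all 6 libraries over coding exon 4.

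In 1-kb windows from 10 kb upstream to 5 kb past the end of NANOG, 23 of 25 windows tested fell, 1 rose and 1 did neither (quasi-binomial model with limma, adjusted p under 0.05), beside 98.3% of 2060730 windows genome-wide that fell and 0.421% that rose. A further window, over exons 3 and 4, had under 10 calls in a library and was not tested. The deepest fall was at chr12:7937001-7938000, from 86.7% ± 1.90 to 1.70% ± 1.49 (SD, n = 3). Its 11 CpGs changed by −85.0 points (quasi-binomial model with limma, adjusted p = 2.64e-35). The window that rose, chr12:7951001-7952000, spans the end of the 3′ UTR and read 4.17, 0 and 0% in Conventional and 13.3, 16.7 and 8.33% in Reset libraries (quasi-binomial model with limma, adjusted p = 0.0395). It held 8 CpGs, of which those at positions 7951338, 7951552, 7951570 and 7951583 received no call in either group. The smallest number of calls in a library was 12, and calls that share a read are counted separately.

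Unlike NANOG, the genes around it had methylated promoters in conventional cells. Of 5 protein-coding genes that start within 100 kb, all 5 promoters fell (quasi-binomial model with limma, largest adjusted p = 1.35e-06), beside 67.3% of all promoters. Their coding sequences, introns and upstream regions fell too, as did 94.3, 97.2 and 98.8% of these parts over all genes. The promoter of DPPA3, a factor of the oocyte and early embryo that marks naive cells, fell from 79.9 to 4.41%. That of GDF3, a ligand of the TGFβ family expressed in pluripotent cells, fell from 71.9 to 8.95%. Falls from 91.3 to 47.8%, 94.0 to 21.8% and 97.0 to 11.6% were seen for CLEC4C, a lectin of plasmacytoid dendritic cells, for NANOGNB, a homeobox gene, and for SLC2A14, a glucose transporter. The median of the 5 was 91.3% in Conventional and 11.6% in Reset libraries, against 15.4 and 4.98% over all promoters. The NANOG promoter lay at 6.52% in conventional cells, below each of these 5, and no protein-coding gene started within 100 kb of KLF2.

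KLF2 followed another pattern: its coding sequence was almost unmethylated in conventional cells and rose slightly in reset cells, while its surroundings fell and its 3′ UTR moved both ways. The coding sequence read 1.67, 1.85 and 2.08% in Conventional and 10.7, 6.36 and 5.42% in Reset libraries. The groups did not overlap, and the rise of 5.61 points passed the test (quasi-binomial model with limma, adjusted p = 0.00345). The test counts calls, and calls at neighbouring CpGs can share a read and are then not independent. Of 18634 coding sequences 1.31% rose, and the median coding sequence went from 86.8 to 33.2%. The share that rose among those as low as KLF2 in conventional cells was not determined. The rise was 4.02 points without Reset 1, the library with the highest value, and still passed (quasi-binomial model with limma, adjusted p = 0.00694). In the 10 kb upstream, levels went from 72.7, 76.6 and 77.3% to 35.7, 41.5 and 37.8%, a difference of −37.2 points (quasi-binomial model with limma, adjusted p = 9.41e-10).

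The promoter of KLF2 read 6.96, 8.39 and 16.3% in Conventional and 11.5, 6.74 and 7.05% in Reset libraries. The groups overlapped, and the difference of −2.13 points did not pass the test (quasi-binomial model with limma, adjusted p = 0.603). Its sign was not stable, since the difference was 0.76 without Conventional 3 and 4.08 for a promoter of 500 bases on either side of the start. Introns read 1.74, 1.25 and 1.47% against 1.27, 3.68 and 3.08%, also an overlapping pair of groups (quasi-binomial model with limma, adjusted p = 0.386). Taken singly they moved in opposite directions, intron 1 from 4.88, 5.56 and 8% to 0, 3.17 and 4.17% and intron 2 from 0% in each library to 1.87, 4 and 2.44% (two-sided exact permutation test, p = 0.1 for each). The 3′ UTR lay at 32.0, 34.2 and 31.1% in Conventional and 26.8, 31.5 and 36.2% in Reset libraries (two-sided exact permutation test, p = 0.8), with overlapping groups. Parts of it moved in opposite directions, since the window chr19:16438001-16439000, which lies wholly within it, fell from 55.9, 51.1 and 58.2% to 29.3, 35.7 and 41.9% (quasi-binomial model with limma, adjusted p = 0.00103), and its beginning was higher in Reset, as given below.

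The methylated Reset calls of the KLF2 coding sequence were placed unevenly. The start of exon 2, the 210 bases printed above, held 28 of 38 in Reset 1, 7 of 26 in Reset 2 and 13 of 20 in Reset 3, more than the remaining coding sequence in Reset 1 and Reset 3 and fewer in Reset 2. This stretch was delimited after the values were seen and is given without a test. Of 28, 38 and 54 Conventional calls there, 0, 2.63 and 3.70% were methylated, and of 67, 88 and 71 Reset calls 41.8, 7.95 and 18.3%. All Reset libraries lay above all Conventional ones, but they spread from 7.95 to 41.8%. Calls at neighbouring CpGs can come from 1 read and are then not independent. The coding sequence without this stretch read 1.90, 1.61 and 1.45% against 3.46, 5.92 and 2.35%. Another such place spanned the end of the coding sequence and the beginning of the 3′ UTR (200 bases, 24 CpGs, chr19:16437837-16438036), with 3.90, 9.43 and 0% in Conventional and 14.0, 25.7 and 27.7% in Reset libraries.

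**Figure D2:**
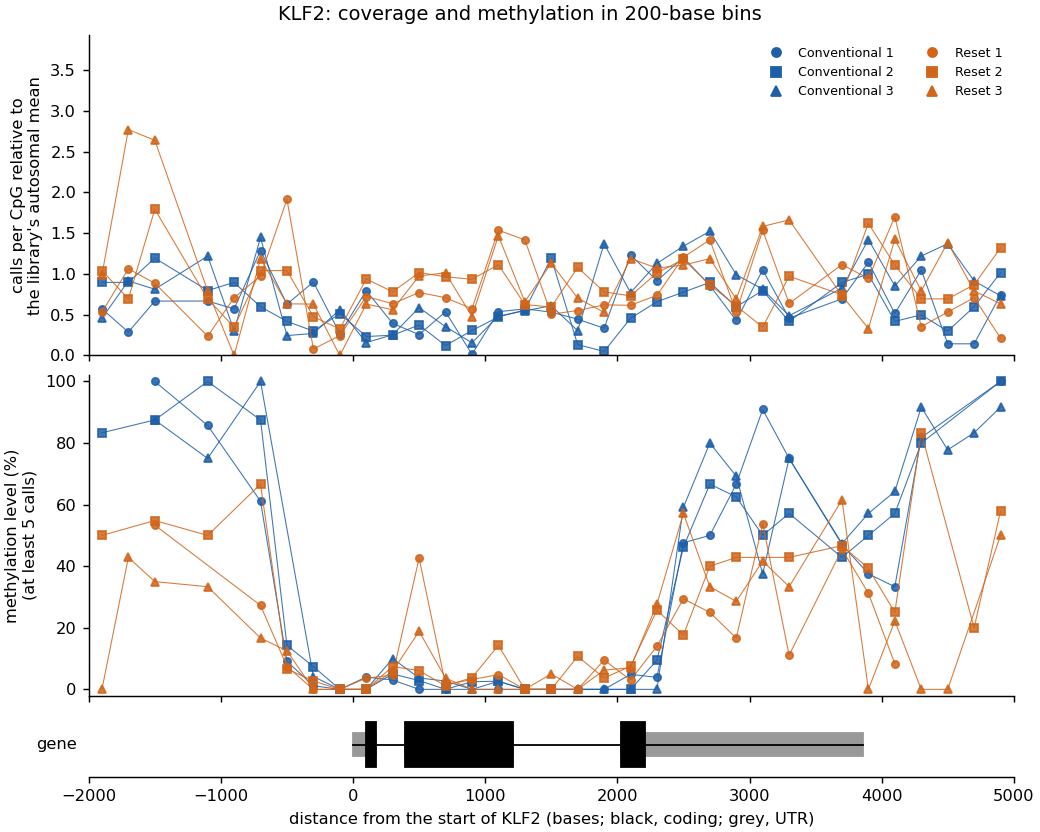
KLF2 in bins of 200 bases, with relative coverage (top) and methylation level in percent (middle, bins with at least 5 calls) against the distance from the gene start in bases, 1 line per library, and the gene model (bottom; black, coding; grey, UTR). Reset libraries lie above Conventional ones in coverage through exon 2, and the levels of Reset 1 and Reset 3 rise at the start of exon 2.

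Of 20 windows of 1 kb around KLF2, 17 fell, 2 rose and 1 did neither, beside 98.3% that fell and 0.421% that rose genome-wide. Those that rose were the adjacent windows over exon 2 to the start of the 3′ UTR. The window chr19:16436001-16437000 went from 1.62% ± 1.41 to 7.01% ± 2.65 (SD, n = 3) over 143 CpGs and chr19:16437001-16438000 from 2.59% ± 2.27 to 10.5% ± 2.90 (SD, n = 3) over 71 CpGs. The larger of these rises was 7.92 points (quasi-binomial model with limma, adjusted p = 5.41e-07). Here too, calls that share a read are counted separately. The deepest fall was at chr19:16442001-16443000 beyond the gene, where levels went from 89.1 to 25.3%, a difference of −63.8 points (quasi-binomial model with limma, adjusted p = 2.56e-18).

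**Figure D3:**
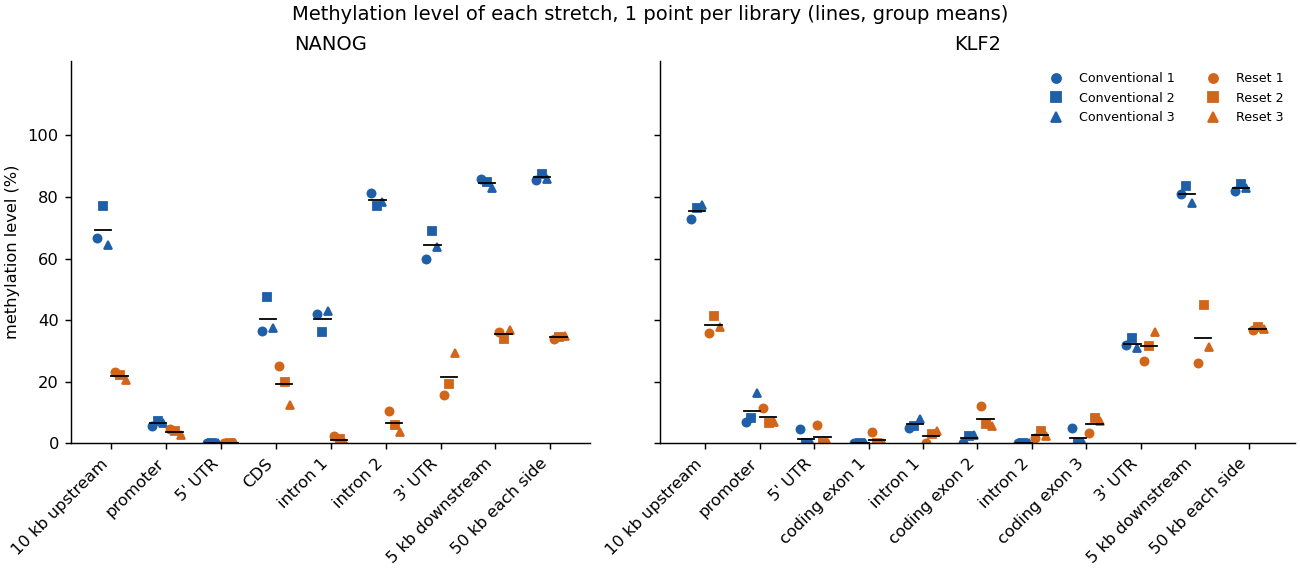
Methylation level in percent of the stretches of NANOG (left) and KLF2 (right), 1 point per library (blue, Conventional; orange, Reset), with lines at group means. The NANOG introns drop to group means of 1.22 and 6.66% in Reset, while the KLF2 coding exon 2 goes from a mean of 1.67 to 8.01% and the KLF2 3′ UTR has overlapping groups.

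The question of whether exons alone gain coverage in reset cells, as a cDNA transgene would give, was put to each gene. For NANOG no such gain was detectable at this depth. Its coding sequence had a relative coverage of 0.393, 0.784 and 0.609 in Conventional and 0.532, 0.434 and 0.792 in Reset libraries. The groups overlapped, and the log2 ratio of Reset over Conventional was −0.03 with a standard error of 0.41 (edgeR quasi-likelihood test, adjusted p = 0.984). It ran from −0.30 to 0.22 as each library was left out in turn. The introns lay at 1.34, 1.14 and 0.999 against 0.947, 1.29 and 1.46, and the coding sequence changed by −0.12 on the log2 scale relative to them (standard error 0.42, edgeR, adjusted p = 0.981). The promoter had a ratio of 0.883 with overlap. The 10 kb upstream lay at 0.911, 0.950 and 0.907 in Conventional and 0.977, 1.26 and 1.31 in Reset libraries, a ratio of 1.28 without overlap (two-sided exact permutation test, p = 0.1). The share of upstream regions of other genes without overlap was not determined.

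This measurement is limited at NANOG, since copies of its sequence lie elsewhere in the genome and a read that matches several places equally has no single origin. Of its 8 coding CpGs, 7 had a copy in an annotated NANOG pseudogene with at most 2 mismatches in the 100 bases around them, and these had a relative coverage of 0.490 over all libraries. The remaining CpG, in exon 1 at chr12:7942353, differed from every copy at 16 or more of 100 bases and had a relative coverage of 1.25. Its 6 libraries held 2, 6 and 6 calls in Conventional and 2, 2 and 5 in Reset (two-sided exact permutation test of relative coverage, p = 1). This CpG lies close to the end of exon 1 at chr12:7942361, so the 100 bases around it reach into intron 1. Reads of a cDNA would leave the exon there, so these counts can hardly show a transgene gain. In the 3′ UTR, 23 CpGs with such a copy had a relative coverage of 0.126 and the other 49 of 0.838, and 60 of 61 intronic CpGs had no copy within 5 mismatches and averaged 1.18. Coverage was thus lower on average where a copy exists, but not at each CpG. The coding CpG at chr12:7942261, 1 mismatch from NANOGP8, held 18 Conventional and 14 Reset calls, more than the 14 and 9 of the coding CpG at chr12:7942353. The part of such copies in the low coverage was not tested. The absence of calls in exon 2 allows a relative coverage of up to 0.858 to 1.19 per library, with 3 reads as the upper limit and both CpGs, which lie close together, on each read (counting error only). Coding exon 4 held 3 calls in all, none of them in Reset.

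The closest copy is NANOGP8, a retrogene on chromosome 15 whose coding sequence equals that of NANOG at 913 of 918 bases (99.5%). Reads of a NANOG cDNA could also align there. NANOGP8 had a relative coverage of 0.817, 1.49 and 0.871 in Conventional and 1.92, 0.942 and 1.19 in Reset libraries over 7 CpGs, with overlapping groups (two-sided exact permutation test, p = 0.5; edgeR log2 ratio 0.35, standard error 0.37, adjusted p = 0.751). Its level fell from 85.0, 82.9 and 85.0% to 55.3, 47.4 and 52.4% (quasi-binomial model with limma, adjusted p = 0.00256). The other 10 annotated pseudogenes, taken whole, had ratios of Reset over Conventional mean coverage between 0.470 and 1.45. The whole region of NANOG also differed slightly, with 0.837, 0.839 and 0.854 in Conventional and 0.930, 0.987 and 1.03 in Reset libraries over the gene and 50 kb on each side, a ratio of 1.17 (two-sided exact permutation test, p = 0.1), against 1.01 for chromosome 12.

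KLF2 gained coverage over its coding sequence in reset cells, from 0.453, 0.320 and 0.387 to 0.836, 0.940 and 0.967 times the library mean. All Reset libraries lay above all Conventional ones, at a ratio of means of 2.36. The log2 ratio was 1.24 with a standard error of 0.15 (edgeR quasi-likelihood test, adjusted p = 0.0110). By size it ranked 5 among the 33 coding sequences called higher, of 19137 tested (0.172%). The test counts calls, and those of the 151 CpGs in these 1068 bases can share reads and are then not independent. In all, 35 genes had a ratio as high or higher, and the median log2 ratio over all genes was 0.09. Of the 33, 14 lay on chromosome 7, whose relative coverage went from between 0.984 and 0.986 to between 1.03 and 1.04, and 1, KLF2, lay on chromosome 19. Chromosome 19 ranged from 0.809 to 0.829 over the Conventional libraries and from 0.798 to 0.849 over the Reset ones. KLF2 with 50 kb on each side ranged from 0.785 to 0.857 and from 0.803 to 0.881, so the groups overlapped on both scales. The call was lost without Conventional 3 (edgeR adjusted p = 0.0518) and without Reset 3 (edgeR adjusted p = 0.0655), while the log2 ratio stayed between 1.12 and 1.37. It was kept with TMM scaling (edgeR adjusted p = 0.0119) and by DESeq2 (log2 ratio 1.15, adjusted p = 1.09e-07), which count the same calls.

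Exon 2 and intron 1 both lay higher in each Reset library than in each Conventional one, while intron 2 and coding exons 1 and 3 had overlapping groups. Intron 1 is short, with 84 Conventional and 161 Reset calls at 27 CpGs in 217 bases. Coding exon 2, of 817 bases and 126 CpGs, lay at 0.306, 0.306 and 0.360 in Conventional and 0.838, 0.989 and 0.908 in Reset libraries, a ratio of 2.81. Each of its 126 CpGs had more calls per autosomal call in Reset. A call was held by 120, 122 and 106 of them in the Reset libraries against 74, 80 and 91 in the Conventional ones. Neighbouring CpGs can share reads and are not separate observations, and the share of such CpGs in other exons was not determined. Intron 1, next to it, lay at 0.434, 0.199 and 0.282 against 0.657, 0.810 and 0.704, a ratio of 2.37 without overlap (two-sided exact permutation test, p = 0.1, as for exon 2). Intron 2 lay at 0.460, 0.403 and 0.735 against 0.825, 0.754 and 0.706, with a ratio of 1.43 and overlap (two-sided exact permutation test, p = 0.2). Coding exon 1, with 8 CpGs, had the highest ratio, 3.12, but varied from 0.038 to 0.787 in Conventional and from 0.607 to 1.24 in Reset libraries, with overlap (two-sided exact permutation test, p = 0.2). Coding exon 3 had a ratio of 1.01 with 1.38, 0.510 and 0.753 against 0.646, 0.735 and 1.28. The 5′ UTR and the 3′ UTR had ratios of 1.15 and 1.12, the promoter 1.30 and the 10 kb upstream 0.995, all with overlap.

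Set against the introns of KLF2 in the same library, the coding sequence gained 0.49 on the log2 scale with a standard error of 0.25, which did not pass the test (edgeR interaction, adjusted p = 0.767). This value ran from 0.30 without Conventional 3 to 0.59 without Conventional 1. Exons with their UTRs gained 0.08 over the introns (edgeR, adjusted p = 0.966), and the coding sequence gained 1.26 over the 10 kb upstream (edgeR, adjusted p = 0.0920). Over all introns the ratio of means was 1.67 and over all exons 1.78, and neither pair of groups overlapped. The share of other genes without overlap was not determined. No gene of 18106 was called higher in its coding sequence relative to introns (0%) by edgeR, although 897 had an unadjusted p under 0.05, and DESeq2 called 7. Single coding exons gave 0 calls among 91974 (0%; edgeR), with 3923 at an unadjusted p under 0.05. The single-exon log2 ratios of KLF2 were 1.61, 1.49 and 0.01 for coding exons 1, 2 and 3, with standard errors of 0.75, 0.19 and 0.44 (edgeR, adjusted p between 0.244 and 1.00).

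**Figure D4:**
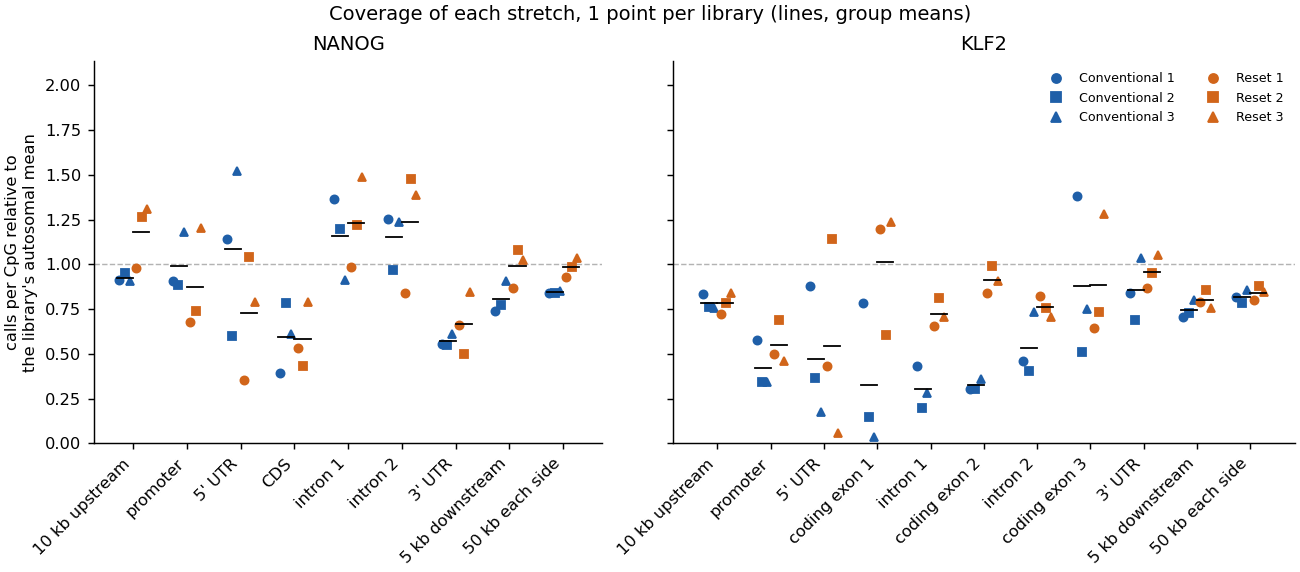
Relative coverage of the stretches of NANOG (left) and KLF2 (right), as calls per CpG over the library's autosomal mean (dashed line at 1), 1 point per library (blue, Conventional; orange, Reset), with lines at group means. In KLF2, intron 1 and coding exon 2 both show Reset libraries above Conventional ones, at ratios of 2.37 and 2.81, and in NANOG the coding sequence overlaps between the groups.

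Base composition moved with the coverage ratio across genes, but within KLF2 the order was not strict. From the highest GC content down, the ratio was 1.15 in the 5′ UTR (79.6% GC), 2.81 in coding exon 2 (77.5%), 2.37 in intron 1 (74.2%) and 3.12 in coding exon 1 (68.0%). It was 1.30 in the promoter (67.02%), 1.43 in intron 2 (64.2%), 1.01 in coding exon 3 (62.5%) and 1.12 in the 3′ UTR (51.6%). The whole coding sequence had a GC content of 74.3%, against 49.3% for that of NANOG. In the 20 classes of genes made by GC content of the coding sequence, the ratio of Reset over Conventional coverage rose from 0.937 in the lowest class to 1.22 in the second highest. KLF2 belongs to the highest class (67.2 to 82.4%), which lay at 0.576, 0.604 and 0.538 in Conventional and 0.605, 0.727 and 0.695 in Reset libraries, a ratio of 1.18. KLF2 thus lay below its class in each Conventional library and above it in each Reset library. With the class means as an offset, added after the data were seen, its log2 ratio was 0.69, or 0.99 above the median of all genes. The offset held no library size, so the lower depth of the Reset libraries shifted all these ratios down, and their median was −0.30. The adjusted p of 0.0603 (edgeR), which missed the threshold, is therefore not a test at equal depth. Under the same shift 2 of 19137 coding sequences (0.0105%) and 0 of 91974 single coding exons (0%; edgeR) were called higher. A ratio as high as that of KLF2 or higher was held by 54 genes. The part of base composition in the KLF2 gain was thus not tested.

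**Figure D5:**
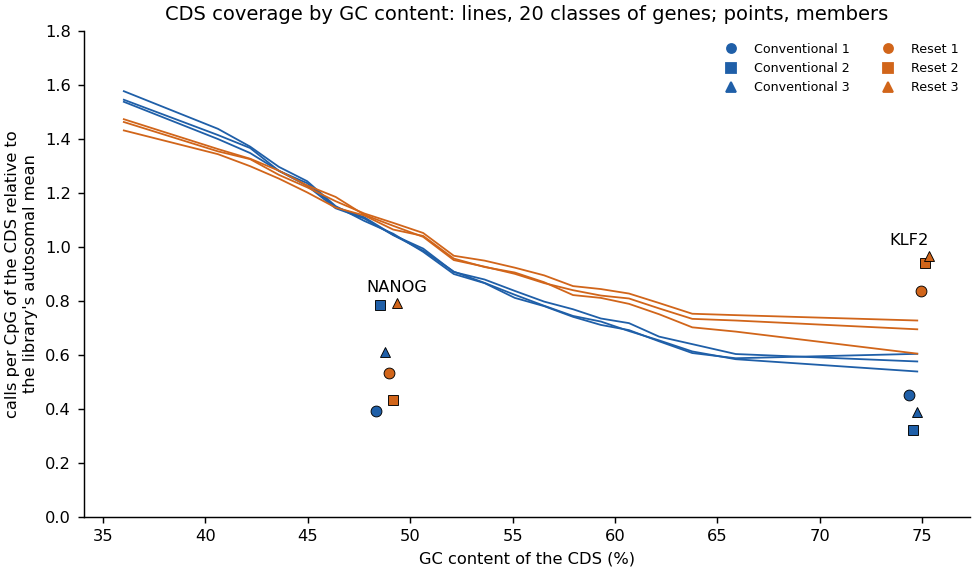
Relative coverage of coding sequences against their GC content in percent, with 1 line per library through 20 classes of genes and points for NANOG and KLF2, shifted slightly sideways to keep them apart (blue, Conventional; orange, Reset). The KLF2 points of the Conventional libraries lie at 0.320 to 0.453 and those of the Reset libraries at 0.836 to 0.967, on either side of the lines of the highest class.

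Related genes were set beside these values. Among 15 other autosomal KLF genes, 5 promoters fell and 1, that of KLF15, rose, beside 67.3% and 3.98% of all promoters, and the median promoter went from 1.00 to 0.970%. The promoters nearest to that of KLF2 in level were those of KLF5 (12.9 to 0.364%, adjusted p = 7.03e-05), KLF14 (5.15 to 1.12%, adjusted p = 0.00244) and KLF9 (18.3 to 2.89%, adjusted p = 0.00148), all lower in Reset (quasi-binomial model with limma). For coding sequences 14 of 15 fell, with the median going from 78.8 to 19.1%, and none rose, beside 94.3% and 1.31% of all coding sequences. In coverage of the coding sequence all 15 log2 ratios lay above 0, with a median of 0.52 against 0.09 over all genes. With the GC offset, which held no library size, 13 of the 15 lay above the median of all genes. Their median was 0.01 against −0.30 over all genes. Without the offset edgeR called none of the 15. At an unadjusted p under 0.05 (edgeR) 8 were higher, as were 10.8% of 19137 coding sequences. DESeq2 called 2, KLF16 (edgeR log2 ratio 1.06) and KLF1 (0.88). It also called KLF2, and in all 126 of the 15054 coding sequences to which it gave an adjusted p (0.837%).

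Of 15 genes of the naive network, which share KLF4, KLF5 and KLF17 with that family, 8 promoters fell and 1, that of the homeobox gene GBX2, rose, beside the 67.3 and 3.98% over all genes. Coding sequences fell in 12 and rose in 2, GBX2 and the T-box gene TBX3, beside 94.3 and 1.31%, so KLF2 was not alone in a rise. The introns fell in 12 of 14 genes and rose in 1, and the upstream regions fell in 13 of 15 and rose in 1, each time TBX3, beside falls in 97.2% of introns and 98.8% of upstream regions and rises in 1.04 and 0.804% over all genes. Medians went from 12.9 to 2.63% in promoters, from 56.4 to 19.4% in coding sequences, from 64.6 to 22.1% in introns and from 71.9 to 19.6% upstream. The median log2 ratio of coding sequence coverage was 0.22. With the GC offset, which held no library size, it was −0.19, against −0.30 over all genes, and 11 of the 15 lay above that. None was called by edgeR or DESeq2, and 6 were higher at an unadjusted p under 0.05, beside 10.8% of all coding sequences.

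Across 17480 genes with enough calls, the pattern of NANOG over 8 group means (promoter, coding sequence, introns and 10 kb upstream in each state) was closest to those of COX5B, COG8 and RCE1, at Euclidean distances of 8.51, 11.7 and 13.4 percentage points. COX5B, a subunit of cytochrome c oxidase, had intron means of 46.0% in Conventional and 3.69% in Reset, beside 50.4 and 2.61% in NANOG. KLF2 was closest to HSPB1, NPBWR1 and LRATD2, at 7.22, 8.40 and 10.3 percentage points. HSPB1, a small heat shock protein, had coding sequence means of 2.11% in Conventional and 2.00% in Reset, beside 1.87 and 7.48% in KLF2. Those of NPBWR1 were 1.54 and 2.14%, and those of LRATD2 2.22 and 2.25%.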

How the data were processed

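The authors trimmed reads with Trim Galore, aligned them to GRCh37 with Bismark (Bowtie2 and Bismark 0.9.0 in the submitters' processing notes) and deposited, per CpG cytosine and library, counts of methylated and unmethylated calls and the percent methylated. No step removing duplicate reads is named. The methods name an earlier Bismark version and default parameters, under which reads without a single best place are not reported. Calls on both strands of a CpG were summed. Gene models were the canonical transcripts of GENCODE 44 on GRCh37.

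Levels were tested per feature kind over all genes with at least 10 calls in every library (quasi-binomial logistic model, limma 3.58.1). Coverage was tested with edgeR 4.0.16 on summed calls (at least 10 on average), with autosomal calls as library size, and DESeq2 1.42.0 as an alternative. The coverage fits with the GC offset held no library size. Adjusted p-values follow Benjamini and Hochberg, and 0.05 was the threshold. Stretches within a gene were compared by two-sided exact permutation tests over 3 libraries against 3, unadjusted. The tests were tried on simulated data. The rule that picks the genes uses no measured value, but the choice of these genes, the lists and the tests was made with earlier results of these data known. Named genes were the members, their lists, neighbours within 100 kb, the 3 genes most alike, and the windows of lowest and highest change.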

Additional observations from a re-analysis of the deposited data

How the results depend on the processing

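Methylation of the introns and 10 kb upstream of both genes, and of the KLF2 coding sequence, kept its direction and its side of the threshold under every alternative run (call minimums of 5 and 20, each library left out, replicate block, Fisher's exact test, and for the upstream region without the promoter). Promoter differences changed sign with bounds of 500 bases on either side of the start (NANOG 0.31, KLF2 4.08 points), where 7473 promoters fell. With each library left out, the KLF2 promoter ran from −3.93 to 0.76 points. Fisher's exact test on pooled calls, which leaves out the spread between libraries, called the NANOG coding sequence (−21.3 points, adjusted p = 0.0353). A minimum of 20 calls left too few calls for the NANOG coding sequence and 1101639 windows that fell genome-wide.

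Coverage calls were less stable. With each library left out, the KLF2 log2 ratio ran from 1.12 to 1.37, that of NANOG from −0.30 to 0.22 and that of NANOG relative to its introns from −0.46 to 0.13. The last was 0.084 with UTRs included. The GC offset, which held no library size, gave 0.69 for KLF2 (edgeR, adjusted p = 0.0603), against a median of −0.30 over all genes. Over all coding sequences edgeR called 16 lower and 33 higher, against 5 and 13 with the replicate block and 82 and 126 with DESeq2. The 252 lower and 2 higher with the GC offset carry the shift from the missing library size. TMM scaling called 32 lower. With each library left out, 2 to 7 were lower and 3 to 64 higher. Relative to introns, DESeq2 called 5 lower and 7 higher, and edgeR 0 to 1 lower with each library left out. The cause of the other differences was not tested.

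In the fit with the replicate block the KLF2 coding sequence had a log2 ratio of 1.25 (edgeR, adjusted p = 0.0425). Whether the numbers pair the libraries cannot be told from these data, since counting error at this depth can hide a pairing. The deviations of same-numbered libraries over 19293 promoters correlated at 0.0075, 0.012 and 0.0096. Those of differently numbered libraries of the 2 groups correlated at −0.0165 to 0.0071. All these values lay near 0, with the same-numbered ones above the others. The NANOG coding sequence held only 10 to 21 calls per library, and single CpGs only a few.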
